A study of Mus musculus with 6 samples.

Results

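Semaphorins, plexins and neuropilins are a family of guidance ligands and their receptors, and their 31 mouse genes were taken from the deposited tables by exact gene name. All 31 were found among the 50559 listed genes, and all 31 had enough counts to be tested, out of 22360 tested genes. They comprise 20 semaphorins, 9 plexins and 2 neuropilins. The libraries came from auditory cortex of C57 mice, 3 labelled WNT3 control and 3 labelled WNT3 overexpressing, and the study's question was which transcripts change when the secreted ligand WNT3 is in excess. No other treatment, age, vector or promoter is named in the labels, nor whether a replicate is 1 animal, so p-values here speak only of the spread among 6 libraries, which may be technical.

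Semaphorins share an extracellular sema domain. Those of class 3 are secreted and mostly bind a neuropilin, which has no signalling domain of its own and passes the signal on through an A plexin. The membrane-bound classes mostly bind plexins directly, and the cytoplasmic part of a plexin acts on small GTPases. In the cortex the family is known for axon guidance and interneuron migration during development, for the control of spines and synapses in the mature brain, and for the patterning of blood vessels.

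Total counts per library ranged from 42614588 to 71803617, and a member had between 45 and 13512 counts in a library. Control 2 stood apart from the other 5 libraries. Its mean Spearman correlation with the others was 0.951, against 0.975 to 0.979 for the rest. Genes in the top tertile of transcript length had a median log2 CPM difference of -0.51 between control 2 and the mean of the other 5 libraries, and those in the bottom tertile one of 0.69. In the other 5 libraries the same medians ran from 0.09 to 0.13 and from -0.16 to -0.09. Counts over the members, and the genes whose values turn on control 2, are therefore also given without it. Wnt3 itself, in CPM (counts scaled to library size with TMM factors), was at 2.70, 1.91 and 1.74 across the control libraries and at 98.8, 7.45 and 8.71 in overexpression, higher in 3 of 3 libraries (log2 fold change 4.18 ± 1.02 SE, edgeR adjusted p = 0.82). The extraction protocol speaks of striatum. Markers of cortical excitatory neurons summed to 1059 to 1183 CPM per library. Those of striatal projection neurons summed to 143, 198 and 271 CPM across the control libraries and 170, 199 and 217 CPM in overexpression. These sums are over different genes, so their sizes do not give the share of either tissue.

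TCF/LEF factors carry the canonical Wnt signal to DNA, so the promoters of the members were searched for 7-base forms of their site. RefSeq promoter windows of GRCm38.p6 (250 bases before to 50 after a start) were at hand for 26 of the 31 genes, 37 windows in all. The letters CTTTGAT or CTTTGAA, on either strand and allowing overlap, were in 2 of the 37 windows (5.4%) and in 8.7% of the 32851 windows of all genes. The 2 were those of Nrp2, whose motif begins 146 bases before the start, and Sema3e, with the reverse complement of CTTTGAA 119 bases before it. A match describes letters only, not a bound site. The windows of the family were rich in G and C, with a median of 63.7% against 52.7% over all windows. The 250 bases before the start are printed for these 2 genes, with the motif in capitals, and for Sema3c, Sema4c and Sema6b, the members whose CPM did not overlap between the groups, which hold no match in the printed stretch. They lie, in the same order, at chr1:62703067-62703316 (plus strand), chr5:14025026-14025275 (plus strand), chr5:17574566-17574815 (plus strand), chr1:36558382-36558631 (minus strand) and chr17:56140344-56140593 (minus strand).
Nrp2: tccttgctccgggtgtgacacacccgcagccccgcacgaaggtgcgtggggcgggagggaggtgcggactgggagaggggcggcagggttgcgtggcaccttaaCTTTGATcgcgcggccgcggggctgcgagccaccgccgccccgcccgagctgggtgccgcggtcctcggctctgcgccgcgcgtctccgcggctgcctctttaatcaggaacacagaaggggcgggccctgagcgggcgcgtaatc
Sema3e: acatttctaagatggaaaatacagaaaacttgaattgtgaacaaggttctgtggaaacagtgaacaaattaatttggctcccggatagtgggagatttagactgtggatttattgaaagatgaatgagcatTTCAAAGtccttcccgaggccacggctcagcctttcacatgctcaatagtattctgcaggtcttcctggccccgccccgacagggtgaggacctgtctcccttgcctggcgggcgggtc
Sema3c: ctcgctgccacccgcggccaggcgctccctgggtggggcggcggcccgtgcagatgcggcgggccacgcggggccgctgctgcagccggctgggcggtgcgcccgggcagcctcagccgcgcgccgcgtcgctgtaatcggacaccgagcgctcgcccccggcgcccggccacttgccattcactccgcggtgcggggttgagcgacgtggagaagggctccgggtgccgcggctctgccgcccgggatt
Sema4c: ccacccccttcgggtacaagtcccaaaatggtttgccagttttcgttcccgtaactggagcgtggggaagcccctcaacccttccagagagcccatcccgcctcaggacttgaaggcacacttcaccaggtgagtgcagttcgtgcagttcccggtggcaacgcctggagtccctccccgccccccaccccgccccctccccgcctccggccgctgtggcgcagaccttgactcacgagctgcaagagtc
Sema6b: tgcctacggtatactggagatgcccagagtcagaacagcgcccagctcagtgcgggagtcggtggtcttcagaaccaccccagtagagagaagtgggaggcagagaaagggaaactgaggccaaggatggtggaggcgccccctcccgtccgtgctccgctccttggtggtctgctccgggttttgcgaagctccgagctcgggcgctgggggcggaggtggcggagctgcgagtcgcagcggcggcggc

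The family was expressed throughout, with mean levels over the 6 libraries from 0.61 TPM (the deposited measure scaled for transcript length and library size) for Sema3b to 109 TPM for Sema7a and a median of 11.9 TPM. Sema7a, which is anchored to the membrane by a lipid and acts through Plxnc1 and beta-1 integrins, ranked first of the 31 in every library. It was at 139, 76.4 and 119 TPM across the control libraries and 83.1, 115 and 119 TPM in overexpression. Behind it came Plxna2 (36.4 TPM), Sema4a (33.7 TPM), Sema6b (33.05 TPM), Plxnd1 (27.9 TPM), Plxnb1 (24.5 TPM) and Sema4d (24.2 TPM), as means over 6 libraries. The lowest places were held by Sema3d, Sema3g and Sema3b. In this order, 28 of the 30 pairs of neighbours had ranges over libraries that overlapped, and only Sema7a over Plxna2 and Sema3g over Sema3b did not. Semaphorins together made up 57.2% to 70.8% of the family's summed TPM in a library, and the lowest share was in overexpression library 1, the highest in control 2. The family's total was 327 TPM in control 2 and between 568 and 609 TPM in the other 5 libraries.

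**Figure D1:**
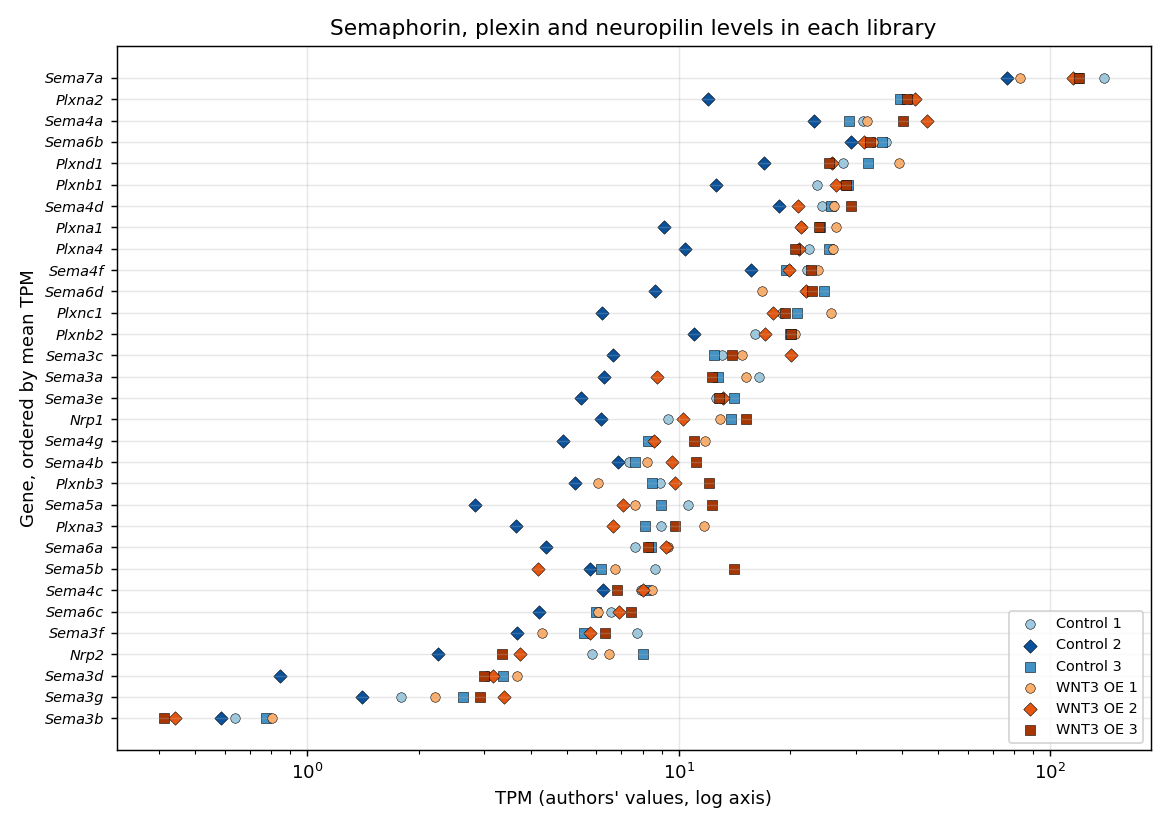
TPM of each of the 31 genes (log axis) in each of the 6 libraries, with genes ordered by their mean. Sema7a is first in every library, and control 2 (dark blue diamonds) is the lowest point for most of the genes.

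No member passed the test between the groups. With p-values from edgeR's quasi-likelihood test, adjusted over all genes by Benjamini-Hochberg, 0 of 31 had an adjusted p under 0.05, as did 0% of the 22360 tested genes. At an unadjusted p under 0.05 the count was 0 of 31, against 4.65% of all tested genes (1.86% higher and 2.8% lower), and without control 2 it was 0 of 31 against 5.87%. DESeq2 called 0 of 31, against 0.286% of all genes, and had 0 members at an unadjusted p under 0.05, against 6.06%. Member log2 fold changes ran from -0.51 for Sema3b to 0.44 for Sema3g, and edgeR p-values from 0.077 to 0.987. For 25 of the 31 genes the 95% interval lay within a 2-fold change in either direction, with a median half-width of 0.53 on the log2 scale over all 31. The intervals of Sema3b, Sema3d, Sema3g, Plxna2, Plxnc1 and Nrp2 reached past a 2-fold change, so a change of that size lies inside their intervals.

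More members had a fold change above 0 than below, and this count depended on control 2. With all libraries, 24 of 31 (77.4%) were above 0, against 49.3% of all tested genes, and 7 were below 0, against 50.7%. The members' median log2 fold change was 0.12, and that of all tested genes was -0.0069. Without control 2, 17 of 31 (54.8%) were above 0, against 53.2% of all genes, and the members' median was 0.025. Leaving out control 2 changed the sign of 7 members (Sema3d, Sema3e, Sema5a, Sema6d, Plxna4, Plxnb1 and Plxnd1). Without overexpression library 3 the count was also 17, and the sign changed for Sema4b, Sema4d, Sema4f, Sema5a, Sema5b, Sema6c and Plxnb3. The groups did not overlap in CPM for 3 of 31 members (9.68%), against 11.9% of all tested genes: Sema3c was higher (5.89% of all genes were), and Sema4c and Sema6b were lower (6.04% were). Without control 2 the groups of 3 members did not overlap either, again 9.68%, against 21.9% of all genes.

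**Figure D2:**
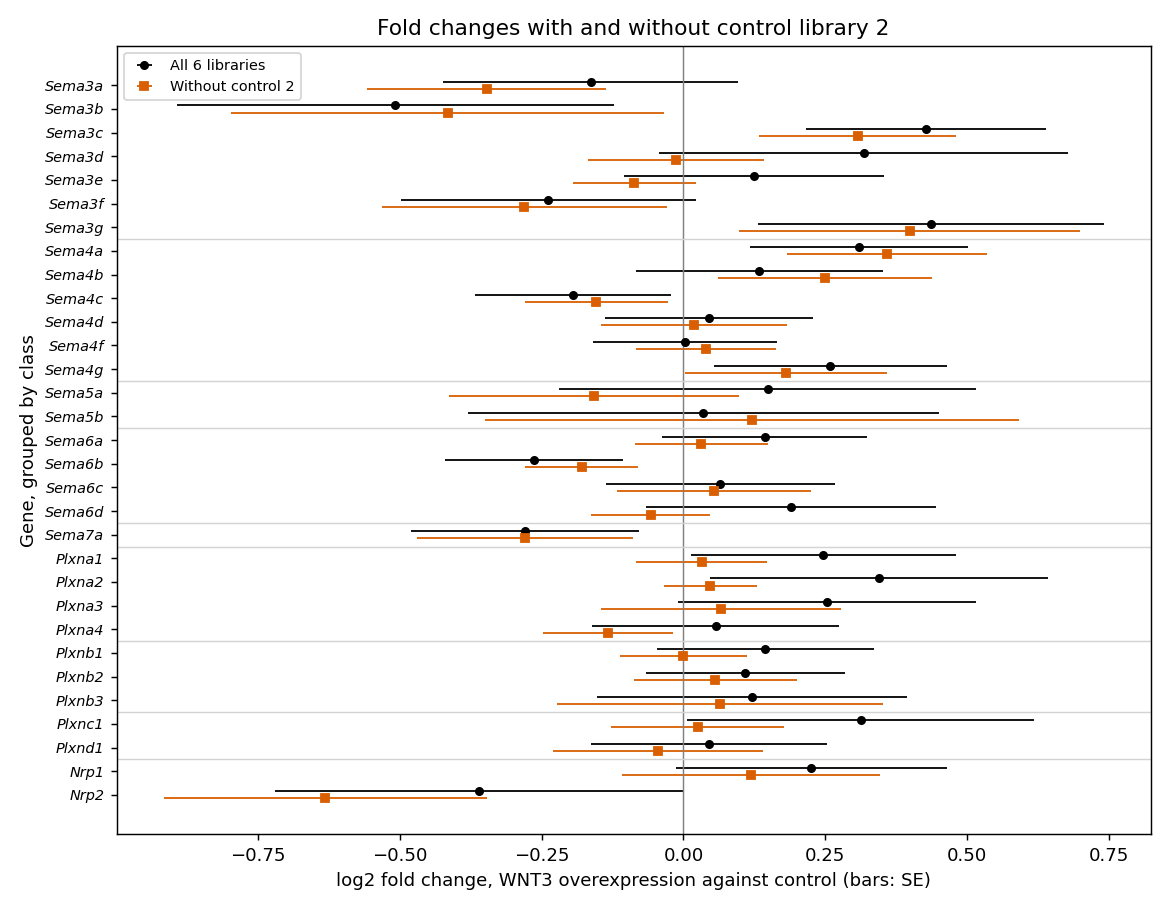
Log2 fold change of each member, WNT3 overexpression against control, with SE bars, from all 6 libraries (black circles) and without control 2 (orange squares). Without control 2 the A plexins lie between -0.13 and 0.07, and Nrp2 moves to -0.63.

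The secreted class 3 semaphorins held the member with the smallest p. Sema3c, which can attract or repel growing axons through neuropilins, was at 26.9, 19.9 and 25.8 CPM across the control libraries and 28.6, 40.2 and 28.9 CPM in overexpression libraries 1 to 3. Each overexpression library lay above each control in CPM and in TPM, with overexpression library 2 standing highest and control 2 lowest. Its means were 24.2 ± 3.75 and 32.6 ± 6.61 CPM (SD, n = 3). On the log2 scale this is a fold change of 0.43 ± 0.21 (SE), with a 95% interval of -0.06 to 0.91 and an adjusted p of 0.82 in edgeR. It was 0.31 ± 0.17 (SE) without control 2 and 0.25 without overexpression library 2.

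Sema3g, a class 3 ligand made mainly by endothelial cells, was at 2.75, 3.14 and 4.05 CPM across the control libraries and 3.17, 5.06 and 5.21 CPM in overexpression. The groups overlapped through overexpression library 1, and the log2 fold change was 0.44 ± 0.30 (SE). Of 8 endothelial markers, 7 had a log2 fold change above 0, and their median was 0.55. Their summed CPM was 238, 226 and 216 across the control libraries and 299, 406 and 274 in overexpression. Among the overexpression libraries, Sema3g was highest in library 3 and the endothelial sum was highest in library 2. With 3 libraries a group, these orders cannot decide which cells the value of Sema3g comes from. The part of endothelial cells in the value of Sema3g was not tested, and in bulk tissue a change in the number of such cells and in RNA per cell cannot be told apart. Sema3b, the scarcest member, was at 1.08, 1.43 and 1.31 CPM across the control libraries and 1.27, 0.72 and 0.70 CPM in overexpression. Only overexpression libraries 2 and 3 lay below the controls, and its log2 fold change was -0.51 ± 0.38 (SE), or -0.83 without overexpression library 1.

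None of the other 4 secreted ligands passed the test. Sema3a, the prototype repellent of cortical axons, had means of 35.7 ± 9.33 and 31.9 ± 7.90 CPM in control and overexpression (SD, n = 3), with a log2 fold change of -0.16 ± 0.26 (SE) that was -0.35 ± 0.21 (SE) without control 2 and 0.03 without control 1. Sema3f, which acts through Nrp2 on dendritic spines, had means of 8.96 ± 1.67 and 7.59 ± 1.74 CPM (SD, n = 3), and its log2 fold change of -0.24 ± 0.26 (SE) was -0.28 ± 0.25 (SE) without control 2 and -0.06 without overexpression library 1. Sema3e, which binds Plxnd1 without a neuropilin, was at 35.9, 22.6 and 40.5 CPM across the control libraries and 34.6, 36.5 and 36.9 CPM in overexpression. It varied by 28.2% (coefficient of variation) among the controls and by 3.37% among the overexpression libraries, and its low value was that of control 2. Sema3d showed the same picture, at 3.39 CPM in control 2 and between 8.29 and 9.49 CPM in the other 5 libraries. Its log2 fold change was 0.32 ± 0.36 (SE) with all libraries and -0.01 ± 0.16 (SE) without control 2. Sema3d, Sema3a, Sema3e and Sema3c lie within 5.35 Mb of chromosome 5 (12383385 to 17730268, mm10, GENCODE M21), and their log2 fold changes were 0.32, -0.16, 0.12 and 0.43.

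Among the class 4 semaphorins, which span the membrane and mostly bind B plexins, 5 of 6 had a fold change above 0, with and without control 2. Sema4a, which also binds Plxnd1, was at 41.3, 43.8 and 38.3 CPM across the control libraries and 39.8, 59.8 and 53.3 CPM in overexpression. Overexpression libraries 2 and 3 were above every control, whereas library 1 lay within their range. The log2 fold change was 0.31 ± 0.19 (SE), with an adjusted p of 0.82 in edgeR, and it was 0.36 ± 0.18 (SE) without control 2, 0.18 without overexpression library 2 and 0.47 without overexpression library 1. Sema4a is also made by immune cells, and 4 of 4 tested markers of infiltrating leukocytes, of 7 listed, had a fold change above 0. The 7 summed to 1.03, 2.55 and 1.76 CPM across the control libraries and 45.0, 37.9 and 6.58 CPM in overexpression. The highest sum, in overexpression library 1, held 25.7 CPM of Jchain, which was at 1.61 and 1.57 CPM in overexpression libraries 2 and 3. Ccr2 was also highest in library 1, at 2.55 CPM. S100a8 and S100a9 were highest in overexpression library 2, at 16.9 and 18.2 CPM, where Sema4a was highest too. Of 6 microglia markers, 0 had a fold change above 0, with a median of -0.22 on the log2 scale. The part of such cells in the value was not tested. Sema4g, a ligand of Plxnb2, was at 18.1, 14.9 and 17.5 CPM across the control libraries and 23.1, 15.9 and 21.3 CPM in overexpression, where libraries 1 and 3 exceeded all controls. Its log2 fold change was 0.26 ± 0.21 (SE), with 0.15 without overexpression library 1 and 0.40 without overexpression library 2.

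Sema4c, another Plxnb2 ligand, was the class 4 member below 0. It was at 15.7, 16.4 and 14.6 CPM across the control libraries and 13.3, 14.2 and 13.3 CPM in overexpression. Each overexpression library lay below each control, but the gap was narrow and the log2 fold change was -0.19 ± 0.17 (SE). On the log2(TPM + 1) scale the sign of Sema4c turned, to 0.06, but the median of all tested genes on that scale was itself 0.14. The TPM values of Sema4c, 7.93, 6.26 and 8.15 across the control libraries and 8.47, 8.03 and 6.80 in overexpression, overlapped. Sema4d, known for its action on Plxnb1, had means of 50.8 ± 2.18 and 52.5 ± 10.01 CPM (SD, n = 3). Sema4f, which binds the scaffold of excitatory synapses, had means of 36.3 ± 2.68 and 36.3 ± 3.15 CPM (SD, n = 3) and the fold change closest to 0 in the family. Sema4b had means of 13.3 ± 1.85 and 14.6 ± 2.80 CPM (SD, n = 3).

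The class 5 semaphorins are transmembrane ligands with thrombospondin repeats outside the cell, and both varied widely between libraries of a group. Sema5a, a ligand of Plxnb3, was at 47.4, 18.6 and 40.7 CPM across the control libraries and 32.2, 30.96 and 55.0 CPM in overexpression. Its lowest value was in control 2 and its highest in overexpression library 3, and the ranges of the groups overlapped in part. The log2 fold change was 0.15 ± 0.37 (SE), or -0.16 ± 0.26 (SE) without control 2 and -0.18 without overexpression library 3. Sema5b was at 17.6, 17.2 and 11.7 CPM across the control libraries and 12.2, 8.31 and 27.1 CPM in overexpression. The overexpression libraries held both the lowest and the highest value of Sema5b, with a coefficient of variation of 62.6%, the largest of any member in either group. Without overexpression library 3 its log2 fold change was -0.60, against 0.04 with all libraries.

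Class 6 semaphorins are transmembrane ligands of A plexins. Sema6b, the most abundant of them, was at 56.5, 68.7 and 60.2 CPM across the control libraries and 51.5, 48.8 and 54.1 CPM in overexpression. All 3 overexpression libraries were below all 3 controls, and the log2 fold change was -0.26 ± 0.16 (SE) with an adjusted p of 0.82 in edgeR. It was -0.18 ± 0.10 (SE) without control 2, the control with the highest value. In TPM the groups of Sema6b overlapped, at 36.2, 29.1 and 35.3 across the control libraries and 33.3, 31.6 and 32.7 in overexpression. On log2(TPM + 1) the median log2 fold change of all tested genes was itself 0.14. Sema6d, a ligand of Plxna1, was at 36.0 CPM in control 2 and between 61.2 and 71.7 CPM in the other 5 libraries, so that its log2 fold change of 0.19 ± 0.26 (SE) became -0.06 ± 0.11 (SE) without that library. Sema6a, a ligand of Plxna2 and Plxna4, had means of 24.7 ± 3.80 and 27.3 ± 1.43 CPM, and Sema6c had means of 10.4 ± 0.41 and 10.9 ± 1.58 CPM (SD, n = 3).

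Sema7a, the single class 7 gene, was lower in overexpression library 1 than in any other library. It was at 163, 153 and 144 CPM across the control libraries and 93.9, 135 and 150 CPM in overexpression. Library 3 lay inside the range of the controls, so the groups overlapped. The log2 fold change was -0.28 ± 0.20 (SE), and the value without control 2 was -0.28 ± 0.19 (SE). It rested more on the overexpression libraries, at -0.10 without library 1 and -0.42 without library 3.

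**Figure D3:**
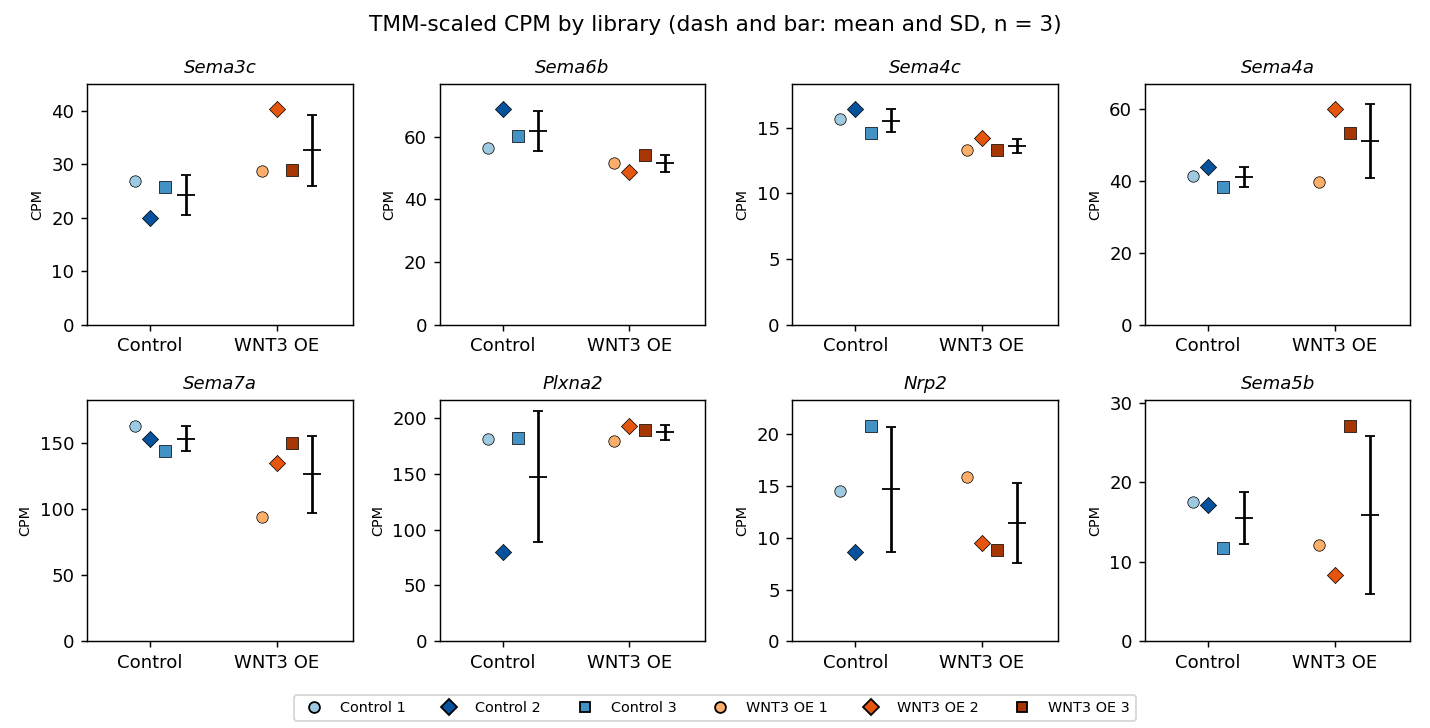
TMM-scaled CPM of 8 members in each library, with the mean and SD of 3 libraries per group as dash and bar. Sema3c is higher, and Sema6b and Sema4c are lower, in each of the 3 overexpression libraries than in any of the controls; Plxna2 is near 180 to 193 CPM everywhere except control 2 at 79.6 CPM.

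The plexins and neuropilins had 10 of 11 fold changes above 0 with all libraries and 7 of 11 without control 2. All 4 A plexins, which carry the signals of class 3 and class 6 semaphorins, had their lowest value of the 6 libraries in control 2. Plxna2 was at 181, 79.6 and 182 CPM across the control libraries and 180, 193 and 189 CPM in overexpression. Apart from control 2, the libraries of both groups fell together, and the log2 fold change of 0.34 ± 0.30 (SE) became 0.05 ± 0.08 (SE) without it. Plxna1 was at 79.9, 49.9 and 90.7 CPM across the control libraries and 93.0, 78.3 and 90.2 CPM in overexpression. Its groups overlapped too, and its log2 fold change went from 0.25 ± 0.23 (SE) to 0.03 ± 0.12 (SE) without control 2. Plxna3 and Plxna4 had log2 fold changes of 0.25 ± 0.26 and 0.06 ± 0.22 (SE) with all libraries and 0.07 ± 0.21 and -0.13 ± 0.11 (SE) without control 2.

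B plexins bind class 4 semaphorins. Plxnb1, the receptor of Sema4d, was at 84.8, 67.3 and 104 CPM across the control libraries and 94.3, 92.2 and 97.0 CPM in overexpression. The overexpression libraries lay within the range of the controls, with a coefficient of variation of 2.54%, the smallest of any member in either group. Plxnb2 had means of 48.0 ± 6.80 and 51.8 ± 5.11 CPM (SD, n = 3). Plxnb3, which is expressed mainly by oligodendrocytes, was at 22.2, 19.3 and 21.4 CPM across the control libraries and 14.2, 23.9 and 30.3 CPM in overexpression. Mature oligodendrocyte markers, summed, were at 4353, 6526 and 4816 CPM in the same controls and 2950, 4898 and 6097 CPM in the same overexpression libraries, with 6 of 6 markers below 0 and a median log2 fold change of -0.40. The lowest value of both was in overexpression library 1. The log2 fold change of Plxnb3 was 0.12 ± 0.27 (SE), or 0.38 without that library and -0.14 without overexpression library 3. The part of these cells in the level of Plxnb3 was not tested.

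Plxnc1, the plexin of Sema7a, was at 56.5, 27.3 and 62.6 CPM across the control libraries and 72.1, 51.9 and 57.7 CPM in overexpression. Control 2 alone lay far below the rest, and the log2 fold change of 0.31 ± 0.31 (SE) was 0.03 ± 0.15 (SE) without it. Plxnd1, the receptor of Sema3e in vessels and neurons, was at 79.4, 71.2 and 94.7 CPM across the control libraries and 106, 72.5 and 74.3 CPM in overexpression. Only overexpression library 1 exceeded the controls, and the log2 fold change was 0.04 ± 0.21 (SE), or -0.15 without that library.

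The neuropilins had opposite signs. Nrp1, which binds Sema3a and also VEGF, was at 23.0, 22.5 and 34.1 CPM across the control libraries and 30.2, 24.9 and 38.0 CPM in overexpression, and its groups overlapped, at a log2 fold change of 0.23 ± 0.24 (SE). It was 0.12 ± 0.23 (SE) without control 2, 0.45 without control 3 and 0.05 without overexpression library 3. Nrp2, which binds Sema3f, was at 14.6, 8.64 and 20.8 CPM across the control libraries and 15.9, 9.54 and 8.85 CPM in overexpression. Control 2 was the lowest library, just under overexpression library 3, and the log2 fold change was -0.36 ± 0.36 (SE). Without control 2 Nrp2 was at -0.63 ± 0.28 (SE), the largest size of any member in that fit, with an adjusted p of 0.86 in edgeR, whereas without control 3, the highest library, it was at -0.017. The groups overlapped there as well, since overexpression library 1 lay above control 1.

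The place of control 2 in these values went with transcript length. By the ratio of deposited count to TPM, 25 of the 31 members were in the top tertile of tested genes, 6 in the middle one and 0 in the bottom one. Control 2 was the lowest of the 6 libraries for 16 members (51.6%), against 34.1% of all tested genes. It was below controls 1 and 3 for 10 of 11 plexins and neuropilins and for 9 of 20 semaphorins. Across the 31 genes, the log2 difference of control 2 from the mean of controls 1 and 3 had a Pearson r of -0.77 and a Spearman correlation of -0.80 with relative length; the genes share the same 3 libraries and are not independent replicates. The difference reached -1.36 for Sema3d, -1.24 for Sema5a and -1.19 for Plxna2, and it was 0.14 for Sema4a, 0.24 for Sema6b and 0.32 for Sema4b, which have shorter transcripts. With the trend on length removed from every library, the members' median log2 fold change was -0.06, 12 of 31 and 5 of 11 plexins and neuropilins were above 0, and no member passed.

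**Figure D4:**
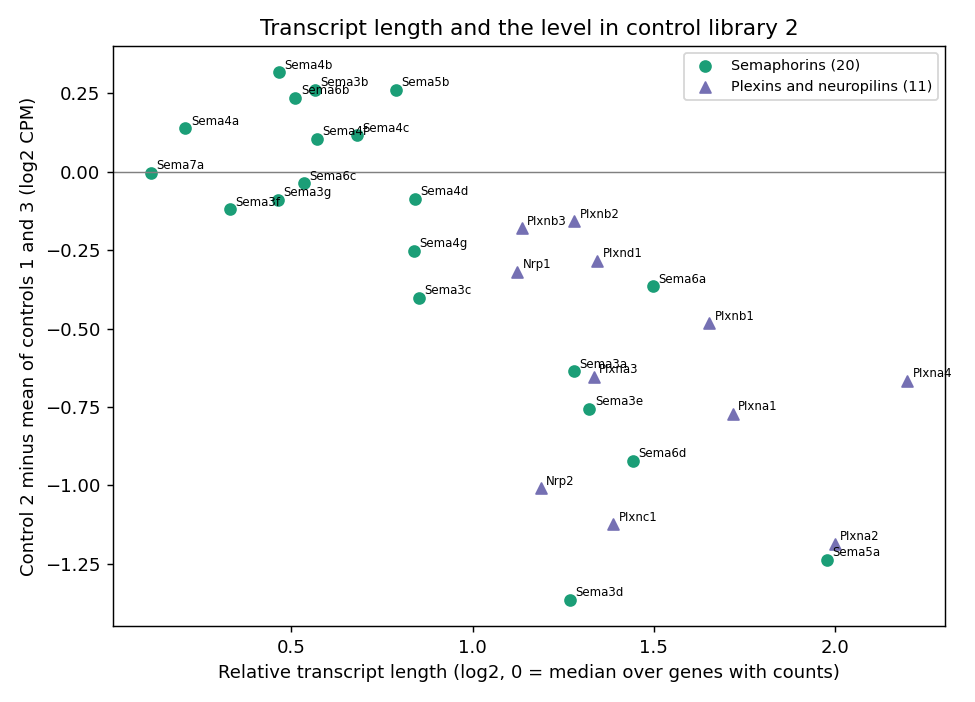
Relative transcript length (log2, from the ratio of count to TPM) against the log2 CPM difference of control 2 from the mean of controls 1 and 3, for 20 semaphorins and 11 plexins and neuropilins. Sema3d, Sema5a and Plxna2 are lowest in control 2, whereas Plxna4, the longest by this measure, is at -0.67.

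The libraries can also be read across the family. Set against the mean of the controls, the 11 plexins and neuropilins had a median log2 difference of 0.09, -0.44 and 0.32 across the control libraries and 0.25, 0.00046 and 0.33 in overexpression, so the groups overlapped. For the 20 semaphorins it was 0.08, -0.06 and 0.05 across the control libraries and -0.02, -0.08 and 0.25 in overexpression. Overexpression library 3 had the highest value of the 6 libraries for 9 members (29%), against 10.1% of all tested genes.

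**Figure D5:**
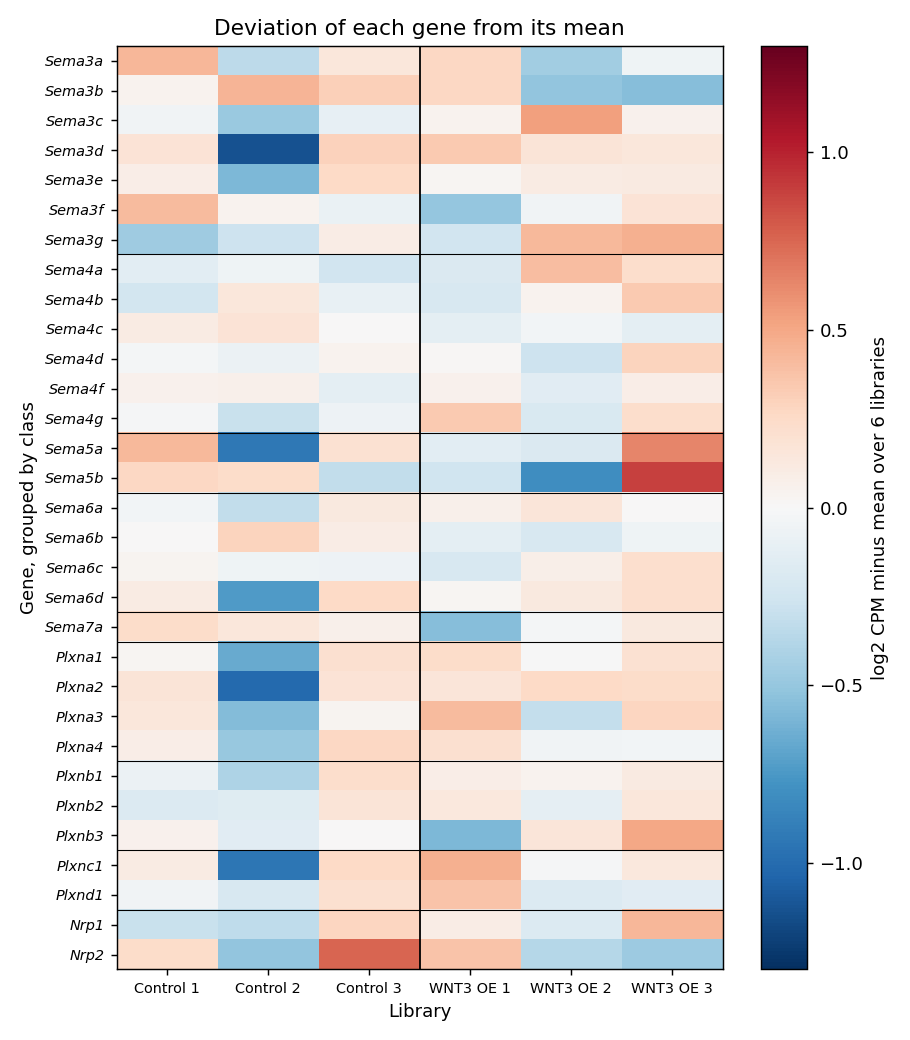
Log2 CPM of each member in each library minus its mean over the 6 libraries, with genes grouped by class and the line between control and overexpression. The mostly blue column is control 2, lowest for 16 of 31 genes, and the strongest red cell is Sema5b in overexpression library 3.

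Partners of the pathway were examined as a list of 48 co-receptors, GTPases, exchange factors, kinases and cytoskeletal effectors, of which 47 were tested. By edgeR 0 of 47 passed over all genes. At an unadjusted p under 0.05 there were 2 of 47, both lower, and DESeq2 called 0. Of all tested genes, 4.65% were under that mark in either direction and 2.8% were lower. Without control 2 there were 3 of 47, against 5.87% of all genes, with Rnd1 and Pak1 lower and Rhod higher. The list's median log2 fold change was 0.04, with 27 above 0 and 20 below. The groups did not overlap in CPM for 3 of 47 partners that were higher and 3 of 47 that were lower. Of all tested genes, 5.89% and 6.04% were so. Timd2, a receptor of Sema4a, was not tested: it had 15 counts in overexpression library 2 and 0 in the other 5 libraries.

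The 3 partners with the smallest p were Rnd1, Gipc1 and Itga1. Rnd1, a small GTPase that binds the cytoplasmic part of plexins, was at 19.2, 36.6 and 24.1 CPM across the control libraries and 15.8, 16.7 and 16.2 CPM in overexpression. All overexpression libraries were below all controls, and control 2 was the highest; the log2 fold change was -0.72 ± 0.25 (SE) with an adjusted p of 0.82 in edgeR, and -0.41 ± 0.14 (SE) without control 2. Gipc1, an adaptor that binds the tail of Nrp1, was at 31.3, 54.1 and 32.2 CPM across the control libraries and 27.4, 22.7 and 29.0 CPM in overexpression. Its groups did not overlap either, and its log2 fold change was -0.57 ± 0.25 (SE), or -0.27 ± 0.14 (SE) without control 2. Itga1, an integrin chain that pairs with beta-1 and binds Sema7a, was at 7.63, 2.16 and 8.92 CPM across the control libraries and 11.9, 11.8 and 9.16 CPM in overexpression. The groups of Itga1 did not overlap, with overexpression library 3 just above control 3. Its log2 fold change was 0.82 ± 0.46 (SE), or 0.41 ± 0.18 (SE) without control 2, the control with the lowest value.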

How the data were processed

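The 6 mouse libraries were stranded and prepared from total RNA by a TruSeq protocol, per the labels. Samples were grouped by title, and table columns were matched by the library names that the labels give. The build mm10, STAR 2.5.3a, FastQC 0.11.5, DESeq 1.16.1 and Cuffnorm are named, without roles, in the submitters' processing notes; which program, annotation and strand option made the counts is not given in the sources used here, and 12 of the 31 members overlap an annotated gene on the opposite strand (GENCODE M21), with which they may share reads. The deposited counts are whole numbers per gene, not normalized. The deposited TPM values sum to the same total in each library, and the unit implies scaling by the authors for transcript length and library size.

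Genes were filtered with filterByExpr (minimum count 10), scaled by TMM and tested with the edgeR 4.0.16 quasi-likelihood test (R 4.3.3), in a model of group alone, with p-values adjusted by Benjamini-Hochberg over all 22360 tested genes at 0.05. SE is the size of the log2 fold change over the square root of F. Relative length is the ratio of count to TPM, and log2 differences between libraries use CPM with a prior count of 2. An exact permutation test was not used, since 3 libraries a group allow no two-sided p below 0.1. Alternatives were other scaling, filters, DESeq2 1.42.0, limma 3.58.1 (voom, and trend on log2(TPM + 1) or log2(TPM + 0.1)), robust empirical Bayes, removal of a length trend (lowess, span 0.3), a replicate block and the omission of each library. The scripts were tested on simulated data.

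The members, lists and tests were chosen with earlier results of these data known. Values in every library are given for the 10 members with the smallest p and the most abundant of each class; those of Sema3e, Sema3d, Sema5b, Sema6d, Plxnb3, Plxnc1 and Nrp2 were chosen after their values were seen, as were the counts of fold changes above 0 and of unadjusted p. Partners are the 3 with the smallest p. Promoter sequences are from RefSeq (GRCm38.p6).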

Additional observations from a re-analysis of the deposited data

How the results depend on the processing

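Under 18 alternatives no member and no partner passed an adjusted p of 0.05, and no gene passed in any of them except under DESeq2, which called 64. The sign of the fold change was the same in all 18 for 14 of the 31 members, Sema3c, Sema6b, Sema7a and Nrp2 among them, and turned in at least 1 for 17. The members' median log2 fold change was 0.12. It was 0.31 on log2(TPM + 1), with or without a mean TPM minimum of 0.5, and 0.33 on log2(TPM + 0.1), scales on which the median of all genes was itself at 0.14, 0.18 and 0.22, and it was -0.058 with the length trend removed. That removal also left 12 members and 5 plexins and neuropilins above 0. Without single libraries the median ran from 0.03 (without control 2) to 0.24 (without control 3), the members above 0 from 17 to 25, the plexins and neuropilins above 0 from 7 to 10, and the genes called stayed at 0. An unadjusted p under 0.05 was reached by 1 member on each TPM scale (Sema4a), by 1 with the length trend removed (Sema6b) and by 0 to 1 without single libraries (Sema4a without overexpression library 1), against 0 in the fit reported. Same-numbered libraries did not deviate together (r of 0.06, -0.02 and -0.01), and a fit with a replicate block passed 0 members, the median was 0.13 and 23 members were above 0.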
